A study of Mus musculus with 9 samples.

Results

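Notch1, Notch2, Notch3, Dll1, Dll3, Jag1, Jag2, Hes1, Hes5 and Hey1, that is receptors, ligands and transcriptional targets of the Notch pathway, were followed in the midbrain of E14.5 mouse embryos that differed in Nkx2.9. These 10 genes were taken by name, through the Ensembl identifiers of the table and the GRCm38 annotation, out of 51912 genes of which 31636 had a value above 0 in any library. RNA sequencing libraries were labelled as Nkx2.9+/+, Nkx2.9LacZ/+ or Nkx2.9LacZ/LacZ (n = 3 per genotype, 9 in total). Nkx2.9 is a ventral homeobox gene whose first exon is replaced by LacZ in all cells of the mutant animals, and the lines were kept on C57BL/6. Each library pooled cDNA from a pair of dissected midbrains of 1 genotype, so the spread between libraries is a spread between pools, and a change in 1 cell type and a change in the number of cells of that type cannot be told apart in such bulk tissue.

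In Notch signalling a ligand of the Delta-like or Jagged family on 1 cell binds a Notch receptor on its neighbour, the receptor is cleaved, and its intracellular part joins Rbpj and Mastermind-like proteins to switch on Hes and Hey genes. The Hes and Hey proteins are repressors that hold down proneural genes and, with them, the ligand Dll1. In the embryonic brain this exchange keeps radial progenitors dividing while their neighbours become neurons, and in vessels the same pathway acts in endothelial and mural cells.

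All 10 genes were measured in all 9 libraries, and no difference in their levels between genotypes passed the test in any comparison. The deposited values are read counts divided by 1 size factor per library, called normalized counts here, and a comparison was made with limma on log2(normalized count + 1) over the 16993 genes that averaged 5 or more normalized counts. After Benjamini-Hochberg adjustment the p of every member was at least 0.999 in all 3 comparisons. Members with an unadjusted p under 0.05 numbered 0 of 10 for Nkx2.9LacZ/LacZ against Nkx2.9+/+, where 2.6% of all genes tested had one, 0 of 10 for Nkx2.9LacZ/+ against Nkx2.9+/+, where 2.78% did, and 0 of 10 for Nkx2.9LacZ/LacZ against Nkx2.9LacZ/+, where 2.64% did. An adjusted p under 0.05 was found for 0% of all genes tested in each of these limma comparisons. With edgeR and with DESeq2 on the reads recovered from the values, the members with an unadjusted p under 0.05 also numbered 0 in each comparison.

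The libraries held between 1692963 and 5942192 reads (median 4921748), and the libraries are named here by their column in the table, columns 1 to 3 being Nkx2.9LacZ/LacZ, columns 4 to 6 Nkx2.9LacZ/+ and columns 7 to 9 Nkx2.9+/+. Column 7, with 1692963 reads, and column 4, with 2584074 reads, were the shallowest, and column 4 held the highest value for 22.1% and the lowest for 24.3% of the genes tested. Reads of Nkx2-9 numbered 4, 6 and 3 in the libraries labelled Nkx2.9LacZ/LacZ, 0, 7 and 4 in Nkx2.9LacZ/+ and 0, 2 and 2 in Nkx2.9+/+. The targeted gene was thus not lower in Nkx2.9LacZ/LacZ than in Nkx2.9+/+, its reads were too few to check the labels, and the gene count also covers exons that the LacZ insertion leaves in place, so every direction below is that of the labelled libraries. The direction of every difference between Nkx2.9LacZ/LacZ and Nkx2.9+/+ below must be taken as uncertain, since the genotype of a column rests on its name alone. Each such difference, those of the midbrain markers included, would change its sign if the names of these columns were exchanged. The comparisons with Nkx2.9LacZ/+ would then change as well, since each would be made with the libraries now under the other name. Midbrain markers were present in every library (En1 157 to 407 and En2 202 to 407 normalized counts), as the tissue label of the samples has it, whereas the title of the series names cortical material. Xist, expressed from the inactive X chromosome of females, stood at 4342, 2580 and 47.1 normalized counts in Nkx2.9+/+, at 79.9, 14.52 and 2929 in Nkx2.9LacZ/+ and at 4633, 4607 and 5182 in Nkx2.9LacZ/LacZ. It was thus high in all Nkx2.9LacZ/LacZ pools and low in 1 wild-type pool and in columns 4 and 5 of Nkx2.9LacZ/+, and Nkx2.9LacZ/LacZ did not overlap either of the other genotypes, which also held for 9.52% of the genes tested against Nkx2.9+/+ and for 8.71% against Nkx2.9LacZ/+. The log2 fold change of Xist was 4.96 against Nkx2.9LacZ/+ (limma unadjusted p = 0.00548) and 2.56 against Nkx2.9+/+ (limma unadjusted p = 0.116), and that of Nkx2.9LacZ/+ against Nkx2.9+/+ was -2.40 (limma unadjusted p = 0.139), with adjusted p of at least 0.999 in each. The part of embryo sex in the member values was not tested.

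The promoter of Hes5 is shown because Hes5 is a direct target of the receptors and was, among the members with a promoter entry, the only one whose window held GTGGGAA, the core motif bound by Rbpj. Motifs were searched on both strands of the 250 bases before the RefSeq transcription start in GRCm38.p6, in which 8 of the 10 members had an entry with 9 promoters between them. Hes1 and Hey1, the other targets among the members, had no entry and could not be searched. Hes5 was thus compared only with receptors and ligands. GTGGGAA was present in 5.42% of 32851 mouse promoters. In Hes5 it lay at 226 to 220 bases before the start on the opposite strand and at 83 to 77 bases on the strand of the gene. The sequence at chr4:154960673-154960922 (GRCm38.p6, plus strand) is given 5′ to 3′ with both matches in capitals.

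Hes5: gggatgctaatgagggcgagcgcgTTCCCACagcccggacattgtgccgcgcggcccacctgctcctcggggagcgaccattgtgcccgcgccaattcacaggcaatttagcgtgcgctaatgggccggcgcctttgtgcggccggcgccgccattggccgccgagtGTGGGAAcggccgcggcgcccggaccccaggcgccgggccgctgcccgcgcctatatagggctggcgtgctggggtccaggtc

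The window upstream of Dll1 is shown as a ligand promoter that held CACGCG, the class C site that Hes repressors bind. This motif was present in 7.62% of the 32851 promoters and in those of Dll1, Jag1 and Notch2, and in 1 of the 2 RefSeq promoters of Dll1 it lay at 68 to 63 bases before the start on the strand of the gene. The other Dll1 window, chr17:15375824-15376073, held no match. The sequence at chr17:15376933-15377182 (GRCm38.p6, minus strand) is given 5′ to 3′ with the match in capitals.

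Dll1: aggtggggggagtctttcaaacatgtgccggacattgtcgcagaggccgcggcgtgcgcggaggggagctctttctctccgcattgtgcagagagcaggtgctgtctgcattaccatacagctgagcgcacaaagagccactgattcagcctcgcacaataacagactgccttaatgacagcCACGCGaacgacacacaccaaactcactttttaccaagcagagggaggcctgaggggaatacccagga

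A further motif, the N-box CACNAG, was in the windows of Notch1, Notch2 and Notch3 but also in 36.7% of all promoters. These matches describe the letters of the windows and are no evidence of binding.

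Among the receptors, Notch1 (ENSMUSG00000026923, chr2:26457903-26516663, minus strand, GRCm38) is the receptor best known from neural progenitors. It was measured at 628, 639 and 537 normalized counts in Nkx2.9+/+, at 727, 554 and 579 in Nkx2.9LacZ/+ and at 518, 662 and 484 in Nkx2.9LacZ/LacZ. The 3 genotypes overlapped, with column 4 (Nkx2.9LacZ/+) highest and column 3 (Nkx2.9LacZ/LacZ) lowest. The ratio of Nkx2.9LacZ/LacZ to Nkx2.9+/+ was 0.917 (95% CI 0.740 to 1.14, limma unadjusted p = 0.401).

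Notch2 (ENSMUSG00000027878, chr3:98013527-98150361, plus strand) is widely expressed in progenitors and outside the nervous system. Its normalized counts were 253, 178 and 177 in Nkx2.9+/+, 282, 187 and 196 in Nkx2.9LacZ/+ and 162, 198 and 162 in Nkx2.9LacZ/LacZ. The highest values were those of columns 4 and 7, the shallowest libraries, and the remaining 7 libraries lay between 162 and 198. Notch2 had a ratio of 0.867 (95% CI 0.658 to 1.14, limma unadjusted p = 0.288) for Nkx2.9LacZ/LacZ to Nkx2.9+/+ and of 0.796 (95% CI 0.604 to 1.05, limma unadjusted p = 0.0985) to Nkx2.9LacZ/+.

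Notch3 (ENSMUSG00000038146, chr17:32120820-32166852, minus strand) is made by progenitors and is the receptor of pericytes and vascular smooth muscle. Its normalized counts were 378, 390 and 346 in Nkx2.9+/+, 487, 350 and 351 in Nkx2.9LacZ/+ and 319, 362 and 301 in Nkx2.9LacZ/LacZ. The lowest pair of libraries, columns 1 and 3, were both Nkx2.9LacZ/LacZ, while column 2 of the same genotype lay among the others. The ratio of Nkx2.9LacZ/LacZ to Nkx2.9+/+ was 0.881 (95% CI 0.711 to 1.09, limma unadjusted p = 0.23), and to Nkx2.9LacZ/+ it was 0.835 (95% CI 0.674 to 1.04, limma unadjusted p = 0.0953).

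The estimates of all 3 receptors were thus slightly below 1 in Nkx2.9LacZ/LacZ and slightly above 1 in Nkx2.9LacZ/+ relative to Nkx2.9+/+, and every interval included 1. For Nkx2.9LacZ/+ against Nkx2.9+/+ the ratios were 1.03 for Notch1 (95% CI 0.828 to 1.27), 1.09 for Notch2 (0.827 to 1.44) and 1.05 for Notch3 (0.851 to 1.31). Without column 4 the log2 fold changes of this comparison became -0.082 for Notch1, -0.062 for Notch2 and -0.081 for Notch3. For Nkx2.9LacZ/LacZ against Nkx2.9+/+, fits that left out 1 library gave log2 fold changes from -0.26 to -0.035 for Notch1. They gave -0.30 to -0.035 for Notch2 and -0.26 to -0.12 for Notch3. Column 4 stood above the median of the other libraries by a ratio of 1.28 for Notch1, 1.54 for Notch2 and 1.39 for Notch3. Column 4 was also highest for Jag2, so that it held the highest value of 4 of the 10 members, against 22.1% of the genes tested and 26.0% of the 7500 genes with a mean of at least 100.

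**Figure D1:**
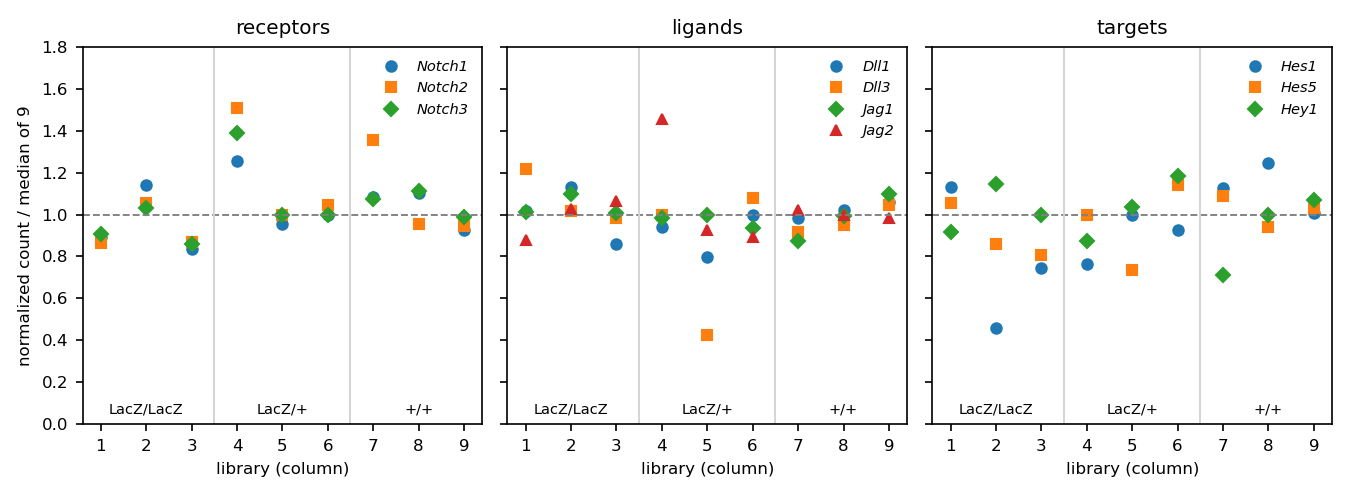
Normalized count of each member in each library, divided by the median of that member over the 9 libraries (vertical axis, ratio without unit), against the column of the library (horizontal axis), in 3 panels for receptors, ligands and targets; marker shape and colour give the gene and the dashed line is the median. The 3 receptors and Jag2 are high together in column 4, Dll3 is low in column 5 and Hes1 is low in column 2.

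Of the Delta-like ligands, Dll1 (ENSMUSG00000014773, chr17:15367354-15376872, minus strand) is presented by newly formed neuronal precursors. Its normalized counts were 158, 164 and 170 in Nkx2.9+/+, 152, 128 and 161 in Nkx2.9LacZ/+ and 163, 182 and 138 in Nkx2.9LacZ/LacZ. The wild-type libraries were tightly grouped (164 ± 6.14, SD, n = 3) and fell inside the range of the Nkx2.9LacZ/LacZ libraries (161 ± 21.9, SD, n = 3). The Dll1 ratio to Nkx2.9+/+ was 0.977 for Nkx2.9LacZ/LacZ (95% CI 0.776 to 1.23, limma unadjusted p = 0.836) and 0.892 for Nkx2.9LacZ/+ (95% CI 0.708 to 1.12, limma unadjusted p = 0.309).

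Dll3 (ENSMUSG00000003436, chr7:28293553-28302238, minus strand) is a ligand of neuronal precursors that acts inside the cell that makes it and does not activate receptors on neighbours. It was measured at 56.9, 58.9 and 64.8 normalized counts in Nkx2.9+/+, 61.9, 26.5 and 66.9 in Nkx2.9LacZ/+ and 75.3, 63.1 and 61.0 in Nkx2.9LacZ/LacZ. Column 5 held 26.5 where the other 8 libraries lay between 56.9 and 75.3, a ratio of 0.423 to their median. The Dll3 ratio was 1.10 for Nkx2.9LacZ/LacZ to Nkx2.9+/+ (95% CI 0.717 to 1.69, limma unadjusted p = 0.645) and 1.37 to Nkx2.9LacZ/+ (95% CI 0.895 to 2.10, limma unadjusted p = 0.136). The log2 fold change against Nkx2.9LacZ/+ was 0.46, and it was 0.04 without column 5, 0.64 without column 4 (limma unadjusted p = 0.0492) and 0.69 without column 6 (limma unadjusted p = 0.0402). Dll1 was also lowest in column 5, and over the 9 libraries the log2 values of Dll1 and Dll3 had a Pearson r of 0.72 (exact permutation p = 0.0331, adjusted over 3 relations 0.0994) and a Spearman rho of 0.53 (exact permutation p = 0.148, adjusted 0.443). Without columns 3 and 5, the libraries farthest from the median of Dll1, r was 0.14. Leaving out these libraries also narrows the range of Dll1, which by itself can lower r. The fall of r therefore does not tell how far the relation rested on them. With the values centred on their genotype r was 0.67.

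Of the Jagged ligands, Jag1 (ENSMUSG00000027276, chr2:137081456-137116644, minus strand) is found in progenitor domains and vessels. It was the steadiest member, with 184, 208 and 230 normalized counts in Nkx2.9+/+, 207, 210 and 197 in Nkx2.9LacZ/+ and 213, 230 and 211 in Nkx2.9LacZ/LacZ. The 3 Nkx2.9LacZ/LacZ libraries lay just above the 3 Nkx2.9LacZ/+ libraries without overlap. This was the 1 member without overlap in that comparison, where 8.71% of the genes tested did not overlap. The Jag1 ratio was 1.07 (95% CI 0.872 to 1.30, limma unadjusted p = 0.509), and the exact permutation test gave p = 0.1, the smallest that 3 against 3 libraries allow. Against Nkx2.9+/+ the Jag1 ratio of Nkx2.9LacZ/LacZ was 1.06 (95% CI 0.863 to 1.29).

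Jag2 (ENSMUSG00000002799, chr12:112907819-112929776, minus strand) is the other Jagged ligand. Its normalized counts were 331, 323 and 318 in Nkx2.9+/+, 471, 300 and 290 in Nkx2.9LacZ/+ and 285, 332 and 345 in Nkx2.9LacZ/LacZ. Column 4 stood alone at 471, a ratio of 1.47 to the median of the others, and the wild-type libraries differed from each other by little (324 ± 6.54, SD, n = 3). The Jag2 ratio of Nkx2.9LacZ/LacZ to Nkx2.9+/+ was 0.986 (95% CI 0.770 to 1.26) and that of Nkx2.9LacZ/+ to Nkx2.9+/+ was 1.06 (95% CI 0.830 to 1.36). Without columns 4 and 7, a choice made after seeing the data, the latter turned to a log2 fold change of -0.12.

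**Figure D2:**
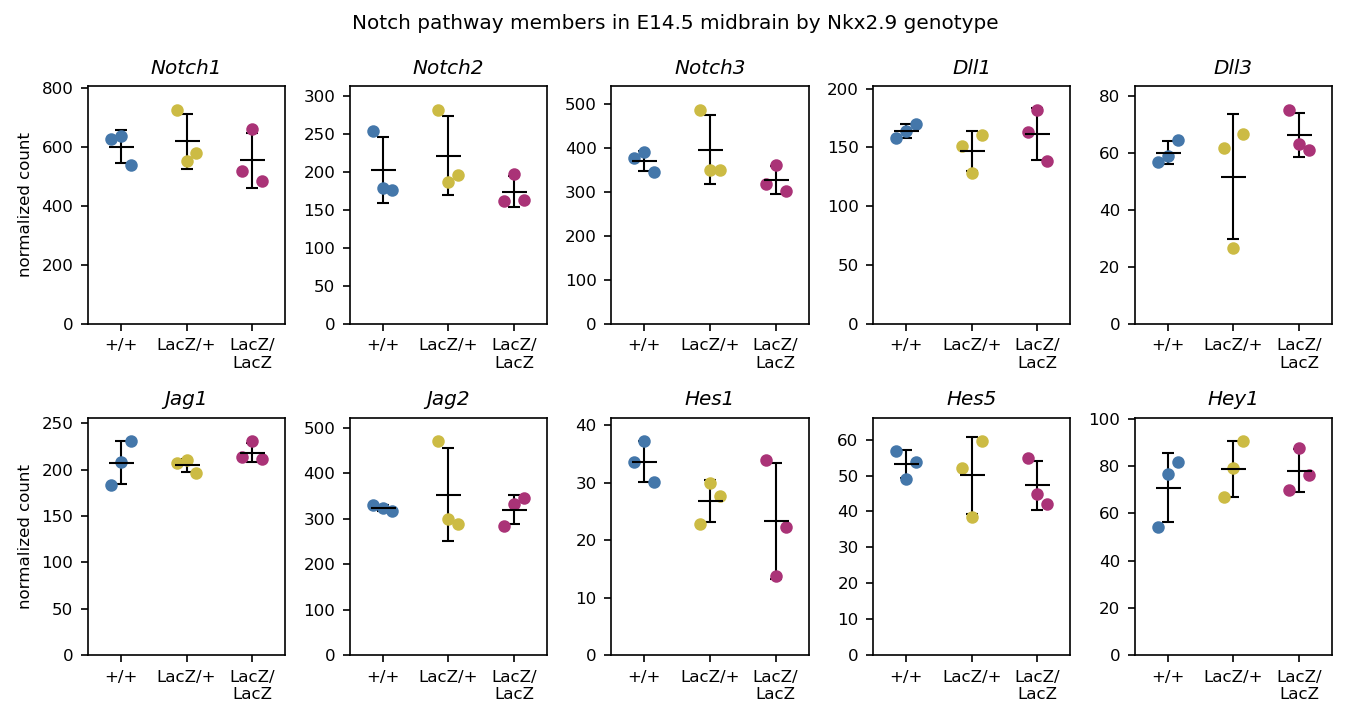
Normalized count (vertical axis, from 0) of each member in the libraries labelled Nkx2.9+/+, Nkx2.9LacZ/+ and Nkx2.9LacZ/LacZ; points are libraries, horizontal bars the mean and error bars the SD (n = 3). The genotypes overlap in every panel except for Hes1 between Nkx2.9+/+ and Nkx2.9LacZ/+ and for Jag1 between Nkx2.9LacZ/+ and Nkx2.9LacZ/LacZ.

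Among the targets, Hes1 (ENSMUSG00000022528, chr16:30064384-30067796, plus strand) is a repressor that keeps neural progenitors undifferentiated and marks regional boundaries, and it had the largest estimated difference between Nkx2.9LacZ/LacZ and Nkx2.9+/+ of the 10 genes. Its normalized counts were 33.6, 37.2 and 30.2 in Nkx2.9+/+, 22.8, 29.9 and 27.7 in Nkx2.9LacZ/+ and 33.9, 13.7 and 22.3 in Nkx2.9LacZ/LacZ. Columns 2 and 3 lay below every wild-type library while column 1, of the same genotype, lay inside the wild-type range. The Hes1 ratio of Nkx2.9LacZ/LacZ to Nkx2.9+/+ was 0.662 (95% CI 0.409 to 1.07) and the log2 fold change was -0.59 ± 0.33 (SE), with a limma unadjusted p of 0.0882 and an exact permutation p of 0.3. Hes1 rested on few reads, from 13 to 53 per library and 276 in all. Without column 1 its log2 fold change was -0.90 (limma unadjusted p = 0.0191), and without column 2 it was -0.28.

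Each Nkx2.9LacZ/+ library held less Hes1 than each Nkx2.9+/+ library, which made Hes1 the 1 member without overlap in that comparison, where 6.91% of the genes tested did not overlap. The ratio was 0.800 (95% CI 0.495 to 1.30, limma unadjusted p = 0.341, exact permutation p = 0.1). In Nkx2.9LacZ/LacZ against Nkx2.9+/+, where 9.52% of the genes tested did not overlap, 0 of 10 members were without overlap. Both comparisons use the same wild-type libraries.

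Hes5 (ENSMUSG00000048001, chr4:154960923-154962371, plus strand), the repressor whose promoter is printed above, responds to Notch in neural progenitors. It was measured at 56.9, 49.1 and 53.7 normalized counts in Nkx2.9+/+, 52.2, 38.4 and 59.6 in Nkx2.9LacZ/+ and 54.9, 44.8 and 42.1 in Nkx2.9LacZ/LacZ. Columns 2 and 3 were again below the wild-type libraries and column 1 was not. The Hes5 ratio of Nkx2.9LacZ/LacZ to Nkx2.9+/+ was 0.886 (95% CI 0.630 to 1.25, limma unadjusted p = 0.462). For Hes5 and Notch1 over the 9 libraries, Pearson r was 0.20 (exact permutation p = 0.601, adjusted 0.601), Spearman rho was 0.05 (exact permutation p = 0.912, adjusted 0.912), r was -0.13 without columns 3 and 4 and 0.13 with values centred on their genotype.

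Hey1 (ENSMUSG00000040289, chr3:8663359-8667256, minus strand) is a related repressor of progenitors and vessels. Its normalized counts were 54.3, 76.5 and 81.7 in Nkx2.9+/+, 66.8, 79.4 and 90.6 in Nkx2.9LacZ/+ and 70.0, 87.8 and 76.4 in Nkx2.9LacZ/LacZ. The lowest library was the shallow column 7, with 21 reads of Hey1. The Hey1 ratio of Nkx2.9LacZ/LacZ to Nkx2.9+/+ was 1.11 (95% CI 0.816 to 1.52, limma unadjusted p = 0.475), and without columns 4 and 7 the log2 fold change was -0.02.

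Over the 10 members the estimates of Nkx2.9LacZ/LacZ against Nkx2.9+/+ were higher for 3 and lower for 7, with a median log2 fold change of -0.08 against 0.01 over all genes tested. For Nkx2.9LacZ/+ against Nkx2.9+/+ they were higher for 5 and lower for 5 (median 0.01, all genes -0.01). For Nkx2.9LacZ/LacZ against Nkx2.9LacZ/+ they were higher for 3 and lower for 7 (median -0.09, all genes 0.02). For the members whose ratios to Nkx2.9+/+ in Nkx2.9LacZ/+ are not given above, these were 0.801 for Dll3 (95% CI 0.523 to 1.23), 0.990 for Jag1 (0.809 to 1.21), 0.928 for Hes5 (0.660 to 1.31) and 1.12 for Hey1 (0.822 to 1.53). Likewise Nkx2.9LacZ/LacZ to Nkx2.9LacZ/+ had ratios of 0.893 for Notch1 (95% CI 0.721 to 1.11), 1.10 for Dll1 (0.870 to 1.38), 0.928 for Jag2 (0.725 to 1.19), 0.827 for Hes1 (0.511 to 1.34), 0.955 for Hes5 (0.679 to 1.34) and 0.993 for Hey1 (0.728 to 1.35). Every one of these intervals included 1. The intervals give the ratios that the data leave possible at 95%, and not the sizes of change that the adjusted test could have called. In Nkx2.9LacZ/LacZ against Nkx2.9+/+ they ran from 0.863 to 1.29 for Jag1, but from 0.409 to 1.07 for Hes1 and from 0.717 to 1.69 for Dll3.

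**Figure D3:**
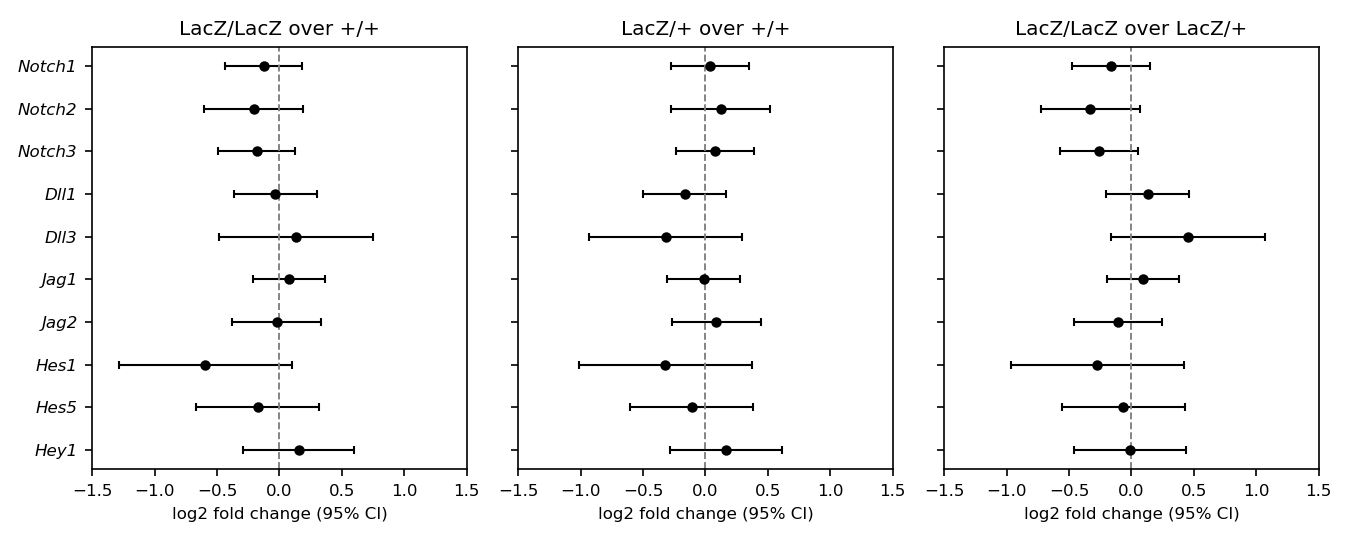
Log2 fold change of each member on the log2(normalized count + 1) scale (horizontal axis) with its 95% confidence interval from limma, for the 3 comparisons of genotypes; the dashed line marks no difference. All intervals include 0, and those of Hes1 and Dll3 are the widest.

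Levels of different genes were compared per length, as normalized count per kilobase of annotated exon averaged over the 9 libraries. Jag2 was highest (47.8 ± 8.0, SD), followed by Notch3 (45.1 ± 6.58), Notch1 (41.6 ± 5.46), Dll1 (37.3 ± 3.86), Hes5 (36.8 ± 5.23) and Jag1 (36.1 ± 2.53). Below them came Hey1 (23.3 ± 3.40), Dll3 (20.9 ± 4.72), Notch2 (18.5 ± 3.83) and Hes1 (13.7 ± 3.56). With this length, only the step from Jag1 to Hey1 separated neighbours in every library, with Jag1 the higher in 9 of 9 libraries and no overlap of their ranges. The lowest single value of the 6 highest members was 28.2 (Hes5) and the highest of the 4 lowest was 27.7 (Hey1). All other neighbours in this order overlapped, and Dll1, Hes5 and Jag1 could not be ordered, Dll1 being above Hes5 in 5 of 9 libraries and Hes5 above Jag1 in 5 of 9. Among all genes tested the members stood between percentile 39.7 (Hes1) and percentile 73.5 (Jag2), that is at middle levels. With the length of the longest transcript in place of the union of exons, Notch1 moved to rank 2, Notch3 to rank 3, Hes1 to rank 9 and Notch2 to rank 10. The union and the longest transcript are 14232 and 9488 bases for Notch1, and 2037 and 1468 bases for Hes1. The separation of Jag1 from Hey1 also depended on the length used: with the longest transcript Jag1 was the higher in 8 of 9 libraries, and the ranges overlapped at every step.

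**Figure D4:**
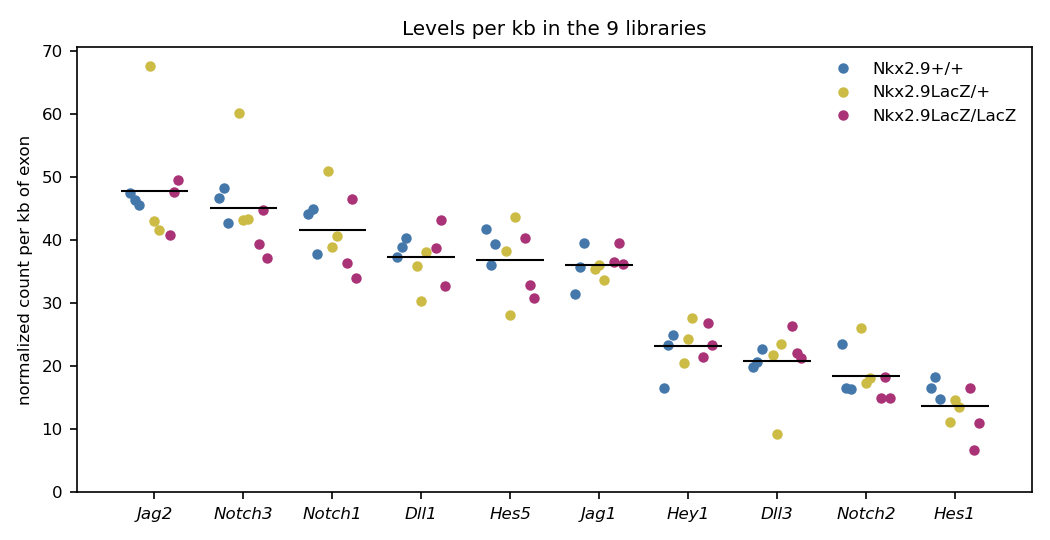
Normalized count per kilobase of exon (vertical axis, from 0) of the 10 members in order of their mean; points are libraries coloured by genotype and the horizontal bars are the means of the 9 libraries. Each value of the 6 highest members, from Jag2 to Jag1, is at least 28.2 and each value of the 4 lowest at most 27.7.

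Notch4, the receptor of endothelial cells, stood far below the other receptors at 8.97 ± 2.61 per kilobase. In Nkx2.9+/+, Notch3 made up 40.2%, Notch1 36.9%, Notch2 16.4% and Notch4 6.44% of the summed receptor level per kilobase of exon. With the longest transcript the order of the first pair turned, to 45.9% for Notch1 and 33.6% for Notch3. The endothelial ligand Dll4 was at 10.5 ± 2.30 and the vascular targets Hey2 and Heyl at 5.21 ± 1.76 and 7.57 ± 1.92 per kilobase. Hes6, a Hes relative that promotes neuronal differentiation, was well above all members at 95.9 ± 4.28. The modifier Lfng, a glycosyltransferase that tunes which ligands a receptor answers to, was at 36.0 ± 9.08, and the DNA-binding partner Rbpj at 30.2 ± 3.69. With the longest transcript Rbpj was at 70.1 ± 8.58 and Lfng at 39.1 ± 9.87 per kilobase, with Rbpj then above Jag2 (65.2 ± 10.9) in the mean, and Hey2 at 9.38 ± 3.16 came above Heyl at 8.53 ± 2.17. The order of these levels thus depended on the length used. All values in this paragraph are levels over the 9 libraries (SD, n = 9) except the shares, and no difference between genotypes in these 7 genes had a limma unadjusted p under 0.05. Hes6 was lower in each Nkx2.9LacZ/LacZ library (167.6 ± 4.44 normalized counts, SD, n = 3) and each Nkx2.9LacZ/+ library (171 ± 7.33) than in each Nkx2.9+/+ library (181 ± 5.05). In these comparisons 9.52% and 6.91% of the genes tested were without overlap, in either direction. The Hes6 log2 fold changes were -0.11 and -0.08 (limma unadjusted p = 0.428 and 0.572, exact permutation p of 0.1 for each), and both comparisons share the wild-type libraries.

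The spread over the 9 libraries was set beside read counting and beside genes of like level, those with a mean close to that of the member. The coefficient of variation was 13.1% for Notch1, 20.7% for Notch2, 14.6% for Notch3 and 16.7% for Jag2, where read counting alone would give 4.30%, 7.41%, 5.48% and 5.74%. Genes of like level had a median of 10.4%, 13.2%, 11.4% and 11.5%, so typical genes also varied by more than counting, and these 4 members, all highest in column 4, lay above those medians. Jag1 (7.01% observed, 7.22% from counting) and Hes5 (14.2% and 14.8%) varied no more than counting alone would give. Dll1 (10.3% and 8.34%), Hey1 (14.6% and 12%) and Hes1 (26.0% and 19.8%) were slightly above it. Dll3 was at 22.6% against 13.6% from counting and 20.4% for genes of like level, with its low value in column 5. Jag1, Dll1, Hes1, Hes5 and Hey1 lay below the medians of genes of like level, which were 13.0%, 14.3%, 28.7%, 22.0% and 18.3%.

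**Figure D5:**
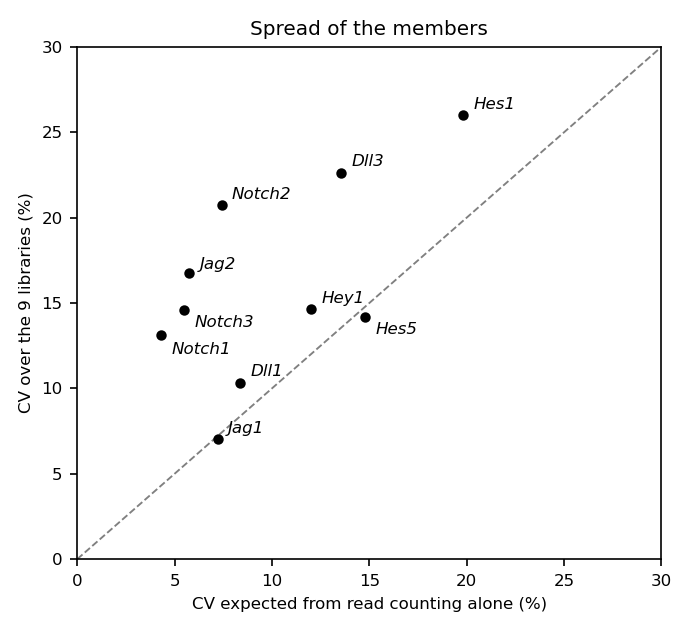
Coefficient of variation of each member over the 9 libraries (vertical axis, percent) against the value that read counting alone would give (horizontal axis, percent); the dashed line marks equality. Jag1 and Hes5 lie on the line, and Notch1, Notch2, Notch3, Jag2 and Dll3 lie well above it.

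The genes whose log2 values were most like those of a member over the 9 libraries, among genes with a mean of at least 100, were Bcl7a (Pearson r 0.97), Eef2 (0.96) and Ddr1 (0.95) for Notch1. For Dll1 they were Jun (0.94), Pygo2 (0.89) and Adipor1 (0.88), and for Hes5 they were Eef1b2 (0.95), Hnrnpa0 (0.92) and Myl12b (0.91). These are the highest of about 7500 correlations over 9 libraries each, which share depth and genotype, and they are given as a description.

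The machinery around the members was examined with 56 other pathway genes, of which 54 passed the minimum (Hes3 and Hes7 did not). In Nkx2.9LacZ/LacZ against Nkx2.9+/+, 1 of 54 had a limma unadjusted p under 0.05, the co-repressor Kdm5a, a histone demethylase that acts with Rbpj, with a ratio of 1.25 (95% CI 1.00 to 1.57, limma unadjusted p = 0.04997). In Nkx2.9LacZ/+ against Nkx2.9+/+ there were 2, Psen2, a catalytic subunit of the gamma-secretase that cleaves Notch (ratio 1.63, 95% CI 1.03 to 2.56, limma unadjusted p = 0.0374), and Maml2, a Mastermind-like coactivator (ratio 0.737, 95% CI 0.577 to 0.940, limma unadjusted p = 0.0171). In Nkx2.9LacZ/LacZ against Nkx2.9LacZ/+ there was 1, Maml2 (ratio 1.36, 95% CI 1.06 to 1.73, limma unadjusted p = 0.0176). The shares of 1, 2 and 1 of 54 stand beside 2.6%, 2.78% and 2.64% of all genes tested. Maml2 averaged 142 ± 6.62 normalized counts in Nkx2.9+/+, 106 ± 16.8 in Nkx2.9LacZ/+ and 142 ± 12.6 in Nkx2.9LacZ/LacZ (SD, n = 3), and both of its comparisons share the Nkx2.9LacZ/+ libraries. Without column 4 its log2 fold change against Nkx2.9+/+ went from -0.44 to -0.30 (limma unadjusted p = 0.0609). In Nkx2.9LacZ/LacZ against Nkx2.9LacZ/+ Maml2 had a limma unadjusted p of 0.0628 without column 4 and of 0.0699 without column 2. Kdm5a had an unadjusted p of 0.0565 with DESeq2. In limma Kdm5a no longer passed without column 1, 2, 3, 6, 7 or 9, with its log2 fold change going from 0.33 to 0.23 without column 7. Psen2 no longer passed in Nkx2.9LacZ/+ against Nkx2.9+/+ with only the 6 libraries (limma unadjusted p = 0.0614) and without column 4, 5 or 9, its log2 fold change going from 0.70 to 0.42 without column 9. In Nkx2.9LacZ/LacZ against Nkx2.9+/+ Psen2 had a log2 fold change of 0.64 (limma unadjusted p = 0.0538), and the unadjusted p was 0.033 with edgeR and 0.0476 with DESeq2. Over the fits without 1 library this log2 fold change of Psen2 ranged from 0.36 to 0.86, the lowest being without column 9 and the highest without column 7. Psen2 and Kdm5a were without overlap between Nkx2.9LacZ/LacZ and Nkx2.9+/+, where 9.52% of the genes tested did not overlap, in either direction. Maml2 was without overlap between Nkx2.9LacZ/+ and each of the other genotypes, where 6.91% (Nkx2.9+/+) and 8.71% (Nkx2.9LacZ/LacZ) of the genes tested did not overlap. After adjustment 0 of 54 remained in any comparison, the smallest adjusted p being 0.999.

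By function, the ubiquitination and endocytosis genes that act on ligands and receptors (13 tested), the processing enzymes (10), the nuclear complex (7), the co-repressors (11), the glycosyltransferases (5), the other receptors and ligands (5) and the Hes and Hey relatives (3) had median log2 fold changes between -0.11 and 0.10 for Nkx2.9LacZ/LacZ against Nkx2.9+/+. All 54 together had a median of -0.01 in this comparison, 0.03 in Nkx2.9LacZ/+ against Nkx2.9+/+ and -0.04 in Nkx2.9LacZ/LacZ against Nkx2.9LacZ/+.

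The marker lists were summed per library to describe the cells in the pools. The summed normalized counts of 8 neural progenitor markers ranged from 3627 to 4104 in Nkx2.9+/+, 3582 to 3680 in Nkx2.9LacZ/+ and 3276 to 4115 in Nkx2.9LacZ/LacZ. Those of 8 endothelial markers ranged from 659 to 806, 746 to 821 and 695 to 804, and those of 6 pericyte markers from 647 to 809, 667 to 776 and 693 to 784, in the same order. Of the 7 precursor and proneural markers the sums ranged from 403 to 520, 436 to 521 and 438 to 537, so that the genotypes overlapped in these 4 lists. The sums of 8 midbrain markers did not overlap between Nkx2.9+/+ (1387 to 1483) and Nkx2.9LacZ/LacZ (1137 to 1282), with Nkx2.9LacZ/+ spanning both (1090 to 1776). Between Nkx2.9+/+ and Nkx2.9LacZ/LacZ, 9.52% of the single genes tested also did not overlap, in either direction. The 8 markers did not share a direction: by the column names, the log2 fold changes of Nkx2.9LacZ/LacZ against Nkx2.9+/+ were below 0 for En1, En2 (-0.44), Pax7 and Pitx3 and above 0 for Otx2 (0.04), Th (0.25), Lmx1a (0.27) and Foxa2 (0.17). Those of En1, Pax7 and Pitx3 were larger in size than that of En2, and that of En2 was larger in size than each of those above 0. Neuronal sums (7 markers) ranged from 27855 to 30915 in Nkx2.9+/+, 25427 to 32010 in Nkx2.9LacZ/+ and 29508 to 30205 in Nkx2.9LacZ/LacZ, and proliferation sums (7 markers) from 434 to 560, 438 to 625 and 518 to 618. Choroid plexus sums (4 markers, of which Aqp1 was at 0 in 5 of 9 libraries) ranged from 23.2 to 69.8, 13.0 to 33.4 and 18.8 to 25.8, microglial sums (5 markers) from 78.0 to 87.9, 71.7 to 91.3 and 65.3 to 97.0, and blood sums (6 markers) from 1434 to 2097, 1554 to 2166 and 1471 to 1822. Notch3 and the summed vessel markers had a Pearson r of 0.27 over the 9 libraries (exact permutation p = 0.497, adjusted 0.601) and a Spearman rho of 0.33 (exact permutation p = 0.385, adjusted 0.578), with r at 0.30 without columns 3 and 4 and 0.33 with values centred on their genotype. Among all marker lists, genes with a limma unadjusted p under 0.05 were En1, Pax7, Pitx3 and the choroid plexus gene Kl, all lower in the columns named Nkx2.9LacZ/LacZ than in those named Nkx2.9+/+, Gadd45g, higher in Nkx2.9LacZ/+ than in Nkx2.9+/+, and the microglial gene C1qb, lower in Nkx2.9LacZ/LacZ than in Nkx2.9LacZ/+. None of these had an adjusted p under 0.05. The direction for En1, Pax7, Pitx3 and Kl is that of the column names and is uncertain, as said above, and the part of the midbrain markers in the member differences was not tested.

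The strand setting and the treatment of reads in shared exons are not given in the sources used here, so the counts of members that overlap another annotated gene are uncertain, and the effect was not tested. Notch1 shares exonic bases with 0610009E02Rik (1068 bases) and Gm13568 (414 bases), Notch3 with Gm17276 (488 bases), Dll1 with A930024N18Rik (867 bases) and Hes5 with Gm20421 (433 bases), all on the opposite strand, and Notch2 with Gm42820 (541 bases) on its own strand. Dll3, Jag1, Hes1 and Hey1 overlap no annotated gene, and Jag2 overlaps only Mir6941, outside its exons.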

How the data were processed

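Dissected E14.5 midbrains of Nkx2.9+/+, Nkx2.9LacZ/+ and Nkx2.9LacZ/LacZ mice were sequenced (9 libraries). According to the submitters' processing notes and the methods of the study, the authors used FastQC, HISAT2 on GRCm38/mm10, featureCounts and DESeq2, with versions not given in the sources used here. The labels name Trizol and an mRNA protocol, the methods a miRNeasy kit and ribosomal RNA depletion. The deposited table is a signal, the counts of reads per gene divided by a DESeq2 size factor. All 210686 values above 0 came out as whole reads within 0.001 (100%), 1 read being worth 0.702 to 2.59. The authors' 3 tables of comparisons (fold change, SE, statistic, p) were not used. Columns carry the genotype but no replicate number. Of the Ensembl IDs 51719 matched GENCODE M21 (GRCm38) and 193 did not.

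limma 3.58.1 (lmFit, eBayes with trend, R 4.3.3) was fitted on log2(normalized count + 1) to the 9 libraries with genotype as the only factor, for genes with a mean of at least 5. Benjamini-Hochberg adjustment covered 16993 genes and the threshold was 0.05. Fold changes are on that scale and understate those of low genes. Ratios are 2 to the power of the log2 fold change. Exact permutation tests were two-sided. edgeR 4.0.16 (quasi-likelihood, TMM) and DESeq2 1.42.0 on the recovered reads were alternatives, as were pseudocounts of 0.5 and 5, no minimum and a minimum of 20, upper-quartile scaling, only the 6 libraries compared and each library left out. The scripts were tested on simulated data. p-values measure only the spread between these pooled libraries. No source ties a library to a litter or sequencing batch. The members and lists were chosen with earlier results of these data known. All members are named, other pathway genes and markers where an unadjusted p was under 0.05 (at most 5 a comparison), and Notch4, Dll4, Hey2, Heyl, Hes6, Lfng and Rbpj whatever their values. Promoters are from RefSeq (GRCm38.p6).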

Additional observations from a re-analysis of the deposited data

How the results depend on the processing

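No paired analysis was possible because the columns of the table carry genotypes but no replicate numbers. Of 540 log2 fold changes of the members under alternatives, 509 kept their direction and their side of an unadjusted p of 0.05, 4 passed it and 27 changed sign. Part of those kept could not change direction. In limma another minimum, only the 6 libraries compared, or a library of the third genotype left out gives the same estimate. Over the fits without 1 library (leave-one-out), the members with an unadjusted p under 0.05 numbered 0 to 1 for Nkx2.9LacZ/LacZ against Nkx2.9+/+ (ko vs wt), 0 for Nkx2.9LacZ/+ against Nkx2.9+/+ (het vs wt) and 0 to 1 for Nkx2.9LacZ/LacZ against Nkx2.9LacZ/+ (ko vs het); a library left alone with 1 other is assumed to vary like the rest. All genes with such a p numbered 283 to 827, 375 to 933 and 293 to 740 in these fits, against 441, 473 and 449 with all libraries. They numbered 1135, 1137 and 1132 with no minimum, 263, 242 and 288 with a minimum of 20, 280 in het vs wt with only 6 libraries and 264 there with DESeq2. Adjusted p under 0.05 went from 0 genes to 1 in het vs wt with DESeq2.

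Without columns 4 and 7, chosen after seeing the data, 6 genes had an adjusted p under 0.05 in ko vs wt, and 703, 852 and 971 an unadjusted one, with 1 member in ko vs het, Dll3 (log2 fold change 0.64, limma unadjusted p = 0.0315). Signs then turned for Jag1 (-0.0068) and Hey1 (-0.024) in ko vs wt, for Notch1 (-0.049), Notch3 (-0.068) and Jag2 (-0.12) in het vs wt, and for Jag2 (0.12) and Psen2 (0.11) in ko vs het. Maml2 in ko vs wt, at -0.0025 with all libraries, was 0.035 there, 0.011 with upper-quartile scaling, 0.015 with edgeR and 0.0068 with DESeq2. The other pathway genes with an unadjusted p under 0.05 in ko vs wt numbered 0 with a pseudocount of 0.5 or a minimum of 20, 2 with no minimum, with only 6 libraries or with edgeR, 3 without columns 4 and 7, and 0 to 3 in leave-one-out fits. In het vs wt they numbered 1 with only 6 libraries and 1 to 3 in leave-one-out fits, and in ko vs het 2 without columns 4 and 7 and 0 to 2 in leave-one-out fits.

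Leave-one-out log2 fold changes that turned ranged in ko vs wt from -0.12 to 0.073 for Dll1, -0.0068 to 0.16 for Jag1, -0.076 to 0.063 for Jag2, -0.024 to 0.27 for Hey1 and -0.063 to 0.064 for Maml2. In het vs wt they ranged from -0.082 to 0.11 for Notch1, -0.062 to 0.29 for Notch2, -0.081 to 0.16 for Notch3, -0.56 to 0.097 for Dll3, -0.099 to 0.063 for Jag1, -0.14 to 0.21 for Jag2, -0.24 to 0.067 for Hes5, -0.013 to 0.28 for Hey1 and -0.11 to 0.21 for Kdm5a. In ko vs het they ranged from -0.23 to 0.12 for Jag2, -0.58 to 0.045 for Hes1, -0.24 to 0.068 for Hes5, -0.12 to 0.093 for Hey1 and -0.32 to 0.11 for Psen2. Ranks of levels per kilobase moved with the longest transcript (Notch1 to 2, Notch3 to 3, Hes1 to 9, Notch2 to 10) and in leave-one-out fits for Dll1 (4 to 5), Hes5 (4 to 6) and Jag1 (5 to 6). The correlation of Notch1 with Hes5 turned to -0.13 without columns 3 and 4. The cause of these changes was not tested. Of the 10 members, Hes1 had the fewest reads, with 13 in its lowest library.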
